A study of Mus musculus with 6 samples.

Results

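The RNA of 9 genes of B cells and plasma cells was compared between kidneys of diabetic mice with and without long-term atorvastatin. The genes were taken by symbol from a table of 17684 genes, and all 9 were listed. Of these, 5 encode proteins of the B cell surface (Cd22, Cd79a, Cd79b, Ms4a1 and Tnfrsf13c) and 2 encode products of plasma cells (Jchain and Mzb1). Pou2af1 is used by B cells and plasma cells, and Tnfrsf17 by late B cells and plasma cells. The Db group held 3 db/db mice, which lack a working leptin receptor and become obese and diabetic, and these mice had been given saline. The Db + Ato10 group held 3 db/db mice given atorvastatin, a statin that blocks cholesterol synthesis, at 10 mg/kg over 40 weeks. All mice were 50 weeks old and of the strain labelled C57 BLKS/L. By the study's methods they were males, dosed by gavage. Mice of both groups died before the end of the study, so that all 6 libraries came from survivors. In the sample records a protocol field mentions atorvastatin for all 6 mice, and the groups used here follow the titles and the treatment field.

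B cells carry an antigen receptor on their surface, in which a membrane immunoglobulin is held together with the signalling chains CD79A and CD79B. When a B cell becomes a plasma cell, it lowers many of these surface proteins and turns to the secretion of antibody, which requires folding factors of the endoplasmic reticulum and, for polymeric IgA and IgM, the joining chain. The healthy kidney holds few cells of either kind, while both can gather in the interstitium of inflamed kidneys.

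The Db libraries 1 to 3 held 13134930, 11381678 and 12426051 counts, and the Db + Ato10 libraries 1 to 3 held 14578023, 14667909 and 13133241. A gene with 3 counts lay between 0.198 and 0.260 CPM (counts divided by the library size after normalization), which is also the level that a count of 0 allows in a library, a limit that covers counting error only. Levels under it rest on 1 or 2 reads. The libraries of the Db + Ato10 group stood far apart from each other in leukocyte RNA. A pan-leukocyte list held Ptprc, Laptm5, Coro1a, Cd53 and Cd52, its most abundant gene when scaled to transcript length. None of them was at 0 in all libraries. These 5 genes summed to 24.2, 61.0 and 36.4 CPM in Db replicates 1 to 3 and to 990, 206 and 59.8 CPM in Db + Ato10 replicates 1 to 3. Thus Db + Ato10 replicate 1 was highest, replicate 2 lay between, and replicate 3 lay within the Db range. In a list of 8 kidney genes, from podocyte to collecting duct, the summed level was 7619, 7558 and 7650 TPM (a level scaled to transcript length) in Db and 3260, 2955 and 6758 TPM in Db + Ato10, so kidney genes were present in every library and lowest in the first and second Db + Ato10 libraries. The methods describe male mice only, but Db replicate 1 held 2 counts of 4 Y-linked genes, and the other libraries held 1419 to 2116.

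The signalling chains of the B cell receptor were the most abundant surface genes. Cd79a stood at 0.11, 0.87 and 0.35 TPM in Db replicates 1 to 3 and at 10.8, 1.92 and 0.74 TPM in Db + Ato10 replicates 1 to 3. Db + Ato10 replicates 1 and 2 lay above every Db library, while replicate 3 lay below Db replicate 2, so the groups overlapped. Cd79b stood at 0.62, 1.75 and 0.53 TPM in Db and at 6.93, 3.66 and 0.85 TPM in Db + Ato10 and overlapped in the same way, with Db + Ato10 replicate 3 below Db replicate 2. The counts behind these levels were small, 11 in all Db libraries together and 156 in all Db + Ato10 libraries for Cd79a, and 22 and 118 for Cd79b. Pooled by group and set against the normalized library sizes, the ratio was 12.1 for Cd79a (95% exact binomial interval 6.59 to 24.8) and 4.59 for Cd79b (2.89 to 7.6), intervals that cover counting error and not the spread between mice. Db + Ato10 replicate 1 held most of the counts of both genes. Without it, a choice made after the data had been seen, the ratio was 3.26 for Cd79a (1.56 to 7.28) and 2.53 for Cd79b (1.48 to 4.46). In bulk kidney RNA, fewer cells of a type and less RNA per cell cannot be told apart.

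Cd22 encodes a sialic acid-binding receptor that dampens B cell receptor signalling. It had 0, 2 and 0 counts in the Db libraries and 68, 24 and 5 counts in the Db + Ato10 libraries. Every Db + Ato10 library lay above every Db library, with a pooled ratio of 41.5 (95% exact binomial interval 11.2 to 347). Ms4a1, which encodes the B cell antigen CD20, had 0, 0 and 1 counts in Db and 20, 3 and 5 counts in Db + Ato10. Each Db + Ato10 library had more reads than each Db library, but Db + Ato10 replicate 2, at 0.203 CPM, lay under the 0.238 and 0.260 CPM that a count of 0 allows in Db replicates 1 and 2, so that a separation of the groups was not detectable at this depth. The pooled ratio of 23.9 had an interval from 3.96 to 979. Tnfrsf13c encodes the receptor for the B cell survival factor BAFF, and it had 0, 1 and 0 counts in Db and 23, 3 and 0 counts in Db + Ato10. Db + Ato10 replicate 3 had no read of Tnfrsf13c, the groups overlapped, and the pooled ratio was 22.2 (3.65 to 911). Over all 6 libraries, Db + Ato10 replicate 1 held 69.0% of the counts of Ms4a1, 85.2% of those of Tnfrsf13c and 68.7% of those of Cd22. Without that library the pooled ratio was 19.2 for Cd22 (4.87 to 166), 10.6 for Ms4a1 (1.42 to 471) and 3.98 for Tnfrsf13c (0.32 to 209), and the last of these intervals included a ratio of 1.

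Pou2af1 and Tnfrsf17 are each used by both B cells and plasma cells, Tnfrsf17 by late B cells. Pou2af1 encodes a coactivator that joins octamer-binding factors on immunoglobulin promoters, and it had 1, 4 and 1 counts in Db and 199, 45 and 3 counts in Db + Ato10. Db + Ato10 replicates 1 and 2 were far above the Db libraries and replicate 3 was within their range, with a pooled ratio of 35.2 (95% exact binomial interval 15.9 to 96.8) that was 10.6 (4.54 to 30.4) without Db + Ato10 replicate 1. Tnfrsf17 encodes BCMA, a survival receptor of plasma cells. It was at 0 counts in 5 of the 6 libraries, and all of its 8 counts were in Db + Ato10 replicate 1. Set against a floor of 3 counts over the Db group, the ratio for the Db + Ato10 group was 2.28. This ratio leaves out the counting error of the 8 counts, so it is not a lower bound, and it rests on that library alone.

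Of the 9 genes, Jchain had the highest mean TPM in the Db + Ato10 group, although Mzb1 was above it in Db + Ato10 replicate 3. Jchain, the joining chain of polymeric antibodies, stood at 0.55, 14.3 and 2.77 TPM in Db replicates 1 to 3 and at 228, 78.4 and 4.01 TPM in Db + Ato10 replicates 1 to 3. The first and second Db + Ato10 libraries lay above every Db library, and the third lay below Db replicate 2, so the groups overlapped. Within the Db group alone, Jchain had 8, 192 and 40 counts, a spread wider than that of any other of the 9 genes with reads in every Db library. Mzb1, which encodes a chaperone that helps assemble and secrete antibodies in the endoplasmic reticulum, stood at 4.21, 5.46 and 3.49 TPM in Db and at 42.9, 8.26 and 9.3 TPM in Db + Ato10. All Db + Ato10 libraries lay above all Db libraries, and here replicates 2 and 3 were close to each other. Among the 9 genes, Mzb1 alone had at least 10 counts in every library.

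**Figure D1:**
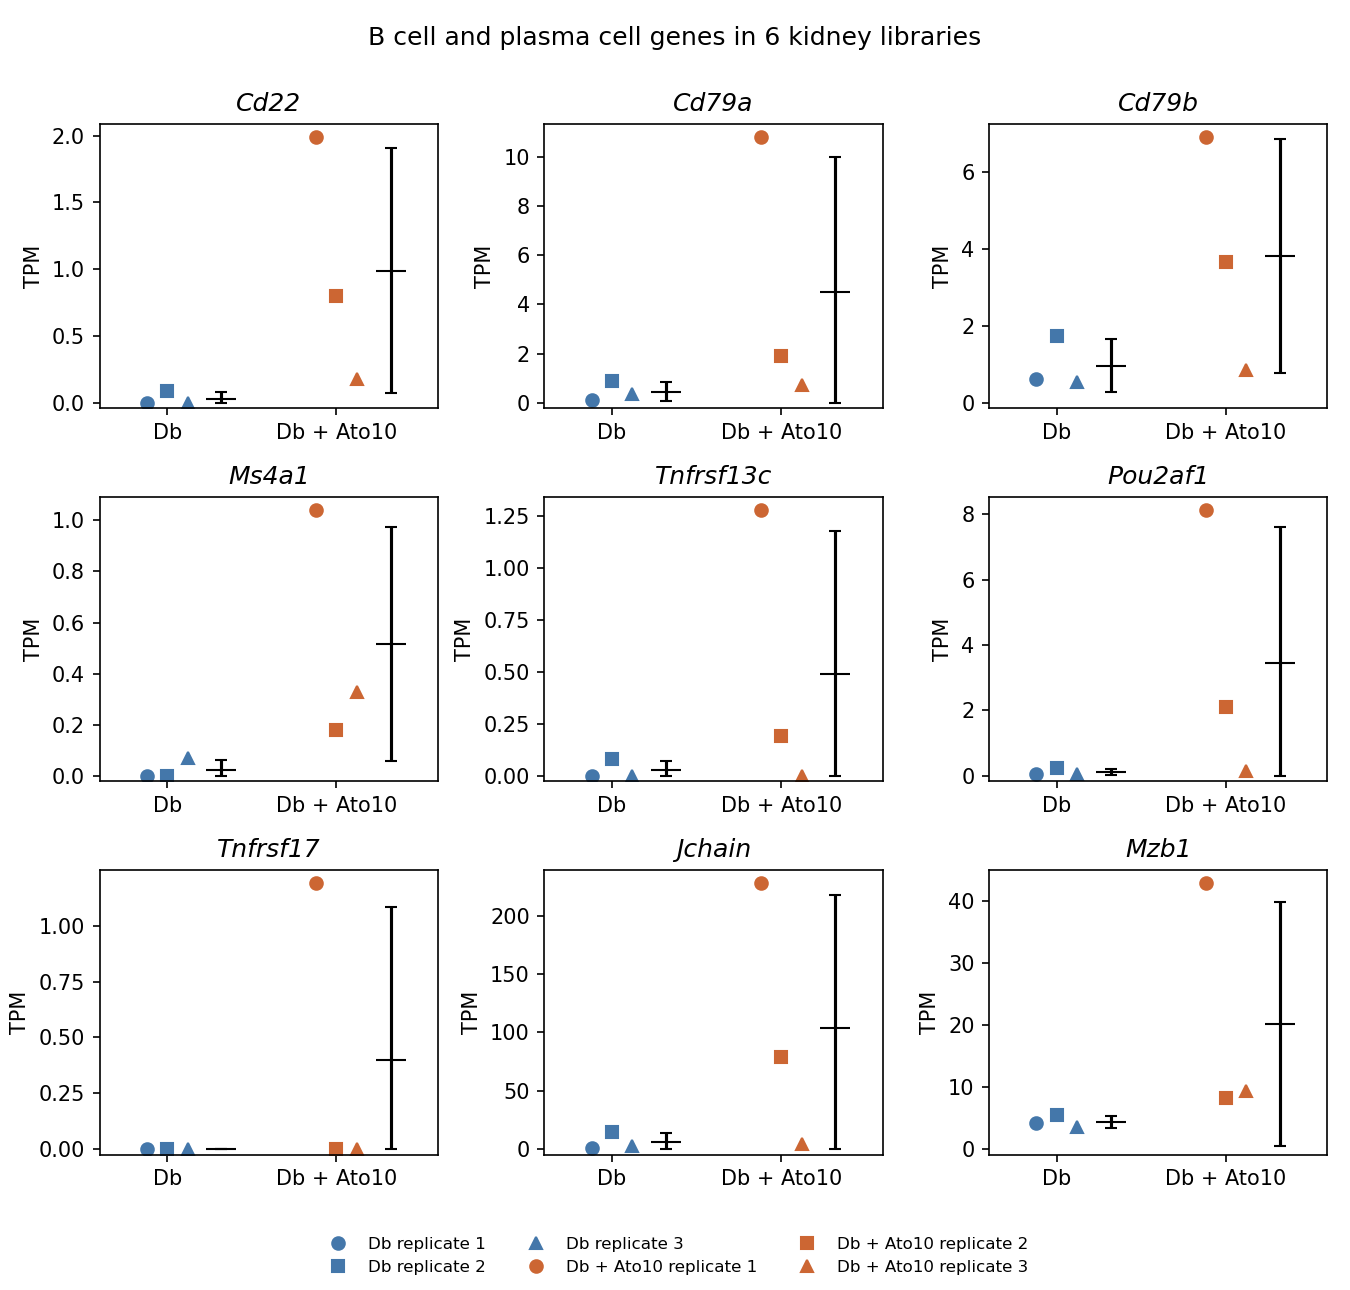
TPM of each of the 9 genes (y axis, linear, a different range in each panel) in the Db and Db + Ato10 groups; points are single libraries and bars are the group mean ± SD of 3 libraries, cut at 0 where the SD exceeds the mean. Db + Ato10 replicate 1 is the highest library in all 9 panels, and Jchain reaches 228 TPM in it.

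Only Cd79b, Jchain and Mzb1 had at least 10 counts in at least 3 libraries and entered the edgeR quasi-likelihood fit of 13679 genes. Differentially expressed genes (DEGs) were those that differed more than 1.5-fold with an adjusted p-value (Benjamini-Hochberg) under 0.05. With edgeR, 0 of these 3 genes and 0% of all 13679 tested genes were DEGs and at an unadjusted p-value under 0.05 there were 2314, while DESeq2 called 884 DEGs. The edgeR log2 fold change was 4.27 (SE 1.61) for Jchain, 2.11 (SE 0.66) for Mzb1 and 2.10 (SE 0.87) for Cd79b, with Benjamini-Hochberg adjusted p-values of 0.269, 0.239 and 0.291. All 3 had a fold change over 1.5 with an unadjusted p-value under 0.05, as had 9.85% of tested genes in the same direction. Since Cd79b reached the count minimum only through its high libraries, that count is a description. Without a count filter all 9 genes were fitted, and again 0 of 9 and 0% of 17672 genes were DEGs with edgeR. In that fit 7 of the 9, all but Tnfrsf13c and Tnfrsf17, had a fold change over 1.5 with an unadjusted p-value under 0.05, as had 10.1% of all its genes in the same direction. In CPM, every Db + Ato10 library lay above every Db library for 3 of the 9 genes, Cd22, Ms4a1 and Mzb1, beside 11.2% of the genes with at least 1 count in that direction. For Ms4a1 this order rests on levels within the floor of the Db libraries. Among the genes of the edgeR fit the share in that direction was 12%, and Mzb1 was the 1 of the 3 fitted members in it.

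The number of calls depended on the tool, on the count filter and on single libraries. DESeq2 called Mzb1 among the 3 fitted members (adjusted p = 0.0296), beside 5.17% of tested genes called as higher, and its adjusted p-values were 0.0830 for Jchain and 0.162 for Cd79b. Without Db + Ato10 replicate 3, edgeR called 1106 DEGs over all genes, of which the higher ones were 5.96% of tested genes, and 0 of the 3 fitted members. In this fit edgeR gave adjusted p-values of 0.0632, 0.0770 and 0.0608 for Jchain, Mzb1 and Cd79b. With neither a count filter nor that library, edgeR called 2 of the 9 members, Cd22 and Pou2af1 (adjusted p = 0.0328 and 0.0253), beside 5.96% of 17577 genes called as higher. The fits of these 2 genes in this setting were planned, but the count of members called was taken after the data had been seen. When Db + Ato10 replicate 1 was left out instead, the edgeR log2 fold changes were 2.85 for Jchain and 1.04 for Mzb1, with adjusted p-values of 0.444 and 0.347.

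More members were called by DESeq2 in further settings. Among these calls, only those of Cd22, Cd79a and Pou2af1 without a count filter came from planned fits. The other calls and the counts of members called were taken after the data had been seen. Without a count filter DESeq2 called 4 of the 9, Cd22, Cd79a, Pou2af1 and Mzb1, beside 4.66% of genes called as higher. Without Db + Ato10 replicate 3 it called all 3 fitted members, Cd79b, Jchain and Mzb1 (DESeq2 adjusted p = 0.00577, 0.00776 and 0.00464), beside 11.8% of tested genes called as higher. Of 2 fitted members it called Jchain without Db replicate 2 (DESeq2 adjusted p = 0.000993), beside 3.88% of tested genes, and Mzb1 without Db + Ato10 replicate 2 (DESeq2 adjusted p = 0.0129), beside 2.22%. With any other library left out, DESeq2 called 0 members. Over all alternatives, the adjusted p-values from edgeR, DESeq2 and limma ranged from 0.00464 to 0.604 for Mzb1, from 0.000993 to 0.604 for Jchain, from 0.00577 to 0.630 for Cd79b, from 0.0131 to 0.604 for Cd22, from 0.0431 to 0.604 for Cd79a and from 0.00537 to 0.604 for Pou2af1. For a single gene, 0.1 is the smallest p-value that exact permutation of 3 mice against 3 allows.

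The contrast of interest set plasma cell genes against B cell surface genes within each library. The 5 surface genes summed to 0.477, 1.99 and 0.646 CPM in Db replicates 1 to 3 and to 20.8, 5.74 and 1.89 CPM in Db + Ato10 replicates 1 to 3. Jchain and Mzb1 together summed to 3.10, 19.4 and 5.33 CPM in Db and to 318, 96.0 and 10.7 CPM in Db + Ato10. Both sums were highest in Db + Ato10 replicate 1 and next in replicate 2, and in both, Db + Ato10 replicate 3 lay between the Db libraries. The group means differed 9.13-fold for the surface genes (log2 ratio 3.19) and 15.3-fold for the plasma cell genes (log2 ratio 3.93). Without Db + Ato10 replicate 1 the log2 ratios were 1.89 and 2.54, and without Db + Ato10 replicate 3 they were 3.68 and 4.49. No p-value is given for these sums.

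The ratio of plasma cell to surface gene CPM was 6.50, 9.74 and 8.25 in Db and 15.3, 16.7 and 5.67 in Db + Ato10. It was above every Db library in Db + Ato10 replicates 1 and 2 and below every Db library in replicate 3. On the log2 scale the ratio averaged 3.01 ± 0.29 (SD, n = 3) in Db and 3.50 ± 0.87 (SD, n = 3) in Db + Ato10, a difference of 0.49 that was smaller than the SD of the Db + Ato10 group. Scaled to transcript length, the same ratio in TPM was 6.52, 7.09 and 6.59 in Db and 12.3, 12.8 and 6.34 in Db + Ato10, with the same order. The direction of the difference depended on which plasma cell gene was used. Set alone against the surface genes, a choice made after the data had been seen, Jchain gave a log2 difference of 1.14 and Mzb1 one of -1.10. The share of Jchain in the plasma cell counts was 20.5%, 85.7% and 60.6% in Db and 93.2%, 95.6% and 46.3% in Db + Ato10, so that Mzb1 held most of the counts in Db replicate 1 and in Db + Ato10 replicate 3.

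**Figure D2:**
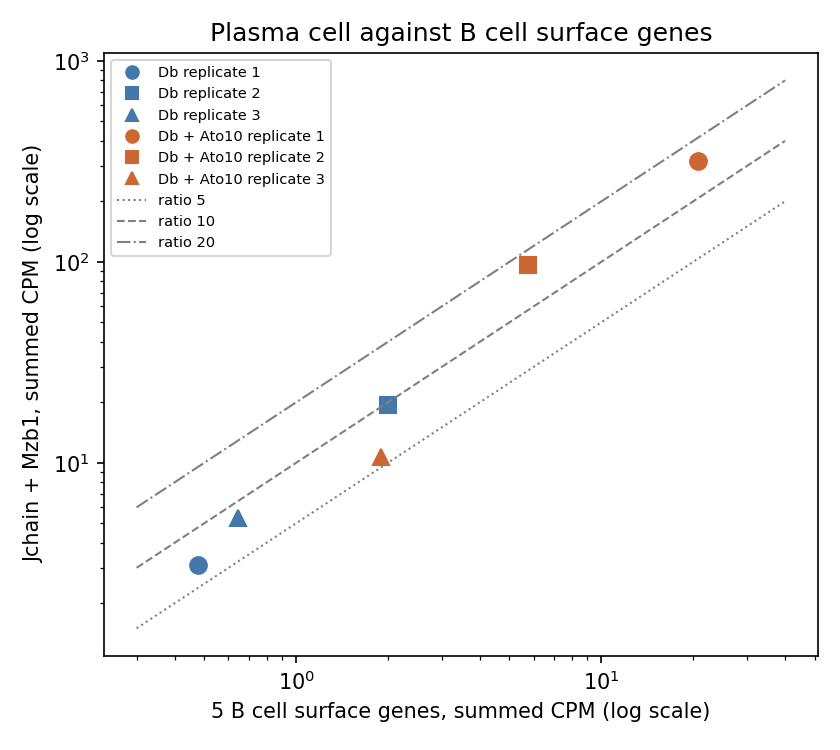
Summed CPM of Jchain and Mzb1 (y axis, log scale) against summed CPM of the 5 B cell surface genes (x axis, log scale) in the 6 libraries; grey lines mark plasma to surface ratios of 5, 10 and 20. Db + Ato10 replicates 1 and 2 lie above the line of 10 at ratios of 15.3 and 16.7, and replicate 3 lies near the line of 5 at 5.67.

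Leukocyte genes as a whole moved with these sums. For each 1000 CPM of the pan-leukocyte list, the surface genes had 19.7, 32.7 and 17.7 CPM in Db and 21.0, 27.8 and 31.6 CPM in Db + Ato10. The groups overlapped on this scale, with means of 23.4 ± 8.11 and 26.8 ± 5.36 (SD, n = 3), while the pan-leukocyte list itself differed 10.3-fold between the group means and 3.28-fold without Db + Ato10 replicate 1, left out after the data had been seen. The plasma cell genes had 128, 318 and 146 CPM per 1000 pan-leukocyte CPM in Db and 322, 465 and 179 in Db + Ato10, with means of 198 ± 105 and 322 ± 143 (SD, n = 3). These groups also overlapped, since Db + Ato10 replicate 3 lay below Db replicate 2.

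Markers of macrophages, neutrophils and T cells were high in the same libraries, those of NK cells and dendritic cells stood less far above the Db mean, and their part in the result was not tested. Of 8 tested macrophage genes, 8 had a positive edgeR log2 fold change and 7 were higher with DESeq2, beside 5.17% of all tested genes, and the list summed to 146, 325 and 228 TPM in Db and to 6764, 1973 and 335 TPM in Db + Ato10, with Lyz2 the most abundant. Neutrophil genes summed to 22.3, 37.6 and 16.4 TPM in Db and to 44013, 427 and 41.8 TPM in Db + Ato10, with S100a9 the most abundant and a median edgeR log2 fold change of 9.45 over 4 tested genes. That list set Db + Ato10 replicate 1 further apart than any other list did. T cell genes summed to 4.59, 10.7 and 5.10 TPM in Db and to 36.2, 35.9 and 7.70 TPM in Db + Ato10, close to each other in replicates 1 and 2, where the B cell surface genes were not. In the NK cell and dendritic cell lists both libraries stood closer to the Db mean than in the T cell list. NK cell genes summed to 0.72, 3.12 and 1.34 TPM in Db and to 6.74, 2.35 and 0.39 TPM in Db + Ato10, with Db + Ato10 replicate 2 below Db replicate 2. Genes of plasmacytoid dendritic cells summed to 22.1, 26.4 and 29.0 TPM in Db and to 40.6, 30.5 and 24.5 TPM in Db + Ato10, and those of conventional dendritic cells to 6.40, 6.96 and 5.11 TPM and to 8.49, 9.82 and 5.85 TPM. In both dendritic cell lists Db + Ato10 replicates 1 and 2 were above every Db library and replicate 3 was within their range. No gene of the pan-leukocyte, macrophage, neutrophil or T cell lists was at 0 in all libraries.

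Other genes of B cells were described by 26 identity genes, of which 11 had enough counts to be tested. With edgeR 0 of the 11 were DEGs, 4 were higher with DESeq2, beside 5.17% of all tested genes, and the median edgeR log2 fold change was 1.64 beside -0.0063 over all tested genes. The 4 with the smallest p-values were Ly6d (edgeR log2 fold change 6.01, SE 1.04), Spi1 (3.87, SE 1.11), Pou2f2 (2.58, SE 0.82) and Cd37 (4.09, SE 1.36), of which Spi1 and Cd37 are also used by myeloid cells and Ly6d by epithelium. Ly6d, at 0.238, 0.260 and 0.242 CPM in Db, was at the floor of 3 counts in each Db library and entered the fit only through the Db + Ato10 libraries, so that its values and its DESeq2 call are a description. Cd24a, which kidney epithelium also expresses, was the most abundant of the list. Not all genes of the list were higher in Db + Ato10, and those named next were chosen after their values were seen. Of the 11 tested genes 9 had a positive edgeR log2 fold change, and the others were Cr2, a complement receptor (-0.89, SE 0.43), and Ralgps2 (-0.16, SE 0.28). Cr2 stood at 1.43, 1.99 and 1.62 CPM in Db and at 1.05, 0.473 and 1.18 CPM in Db + Ato10. Every Db + Ato10 library lay below every Db library for Cr2, as for 1540 of all 13679 tested genes. Among the untested genes, the group means in Db and Db + Ato10 were 0.598 and 0.436 CPM for Fcmr and 0.662 and 0.588 CPM for H2-Ob. Pax5, the transcription factor that holds B cell identity, had 18 counts over all libraries together, with means of 0.227 and 0.221 CPM.

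Genes that pass the receptor signal on were mostly tested, with 15 of 17 above the count minimum. Their median edgeR log2 fold change was 1.77, 0 were DEGs with edgeR and 6, Btk among them, were higher with DESeq2, beside 5.17% of all tested genes. Syk, the kinase recruited by the CD79 chains, stood at 1.67, 2.60 and 1.70 CPM in Db and at 115, 19.6 and 3.78 CPM in Db + Ato10 (edgeR log2 fold change 4.53, SE 1.23). Btk, Pik3ap1 and Pik3cd, which act further along, had edgeR log2 fold changes of 3.12 (SE 0.90), 4.18 (SE 1.30) and 3.05 (SE 0.85), and Fcgr2b, an inhibitory Fc receptor, was the most abundant. Btk was under the count minimum in every Db library and entered the fit only through the Db + Ato10 group, so that its call is a description. Of the 15 genes 14 had a positive value, and the other was Rasgrp3, named after its values were seen, at 17.2, 10.7 and 12.7 CPM in Db and at 9.29, 5.40 and 9.29 CPM in Db + Ato10 (edgeR log2 fold change -0.76, SE 0.30). Every Db + Ato10 library lay below every Db library for this gene, as for 1540 of all 13679 tested genes. Myeloid cells use many of these genes too. In the germinal centre list 2 of 6 genes were tested, S1pr2 and Bcl6, neither called by edgeR or DESeq2, with a median of 0.64.

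Other genes of the plasma cell programme had smaller values in the median than Jchain and Mzb1. All 16 genes of the list passed the count minimum, 13 had a positive edgeR log2 fold change, and the median was 0.30. Kidney cells also express many of them. With edgeR 0 of the 16 were DEGs and 3 were higher with DESeq2, beside the same 5.17%. Irf4, a transcription factor of plasma cells, stood at 0.318, 0.867 and 0.646 CPM in Db and at 6.13, 4.19 and 0.630 CPM in Db + Ato10, high in replicates 1 and 2 alone (edgeR log2 fold change 2.57, SE 0.84). Sdc1, the plasma cell antigen CD138, which epithelium also carries, had an edgeR log2 fold change of 2.43 (SE 0.61), Cd38 one of 3.04 (SE 0.99) and Slamf7 one of 1.99 (SE 0.66). Herpud1, a stress gene of the endoplasmic reticulum and the most abundant of the list, had a value of -0.70 (SE 0.52). The summed level of the list was 1527, 810 and 790 TPM in Db and 803, 797 and 980 TPM in Db + Ato10, with Db replicate 1 the highest library.

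Further lists held signals that keep B cells alive or place them in tissue. In the list of B cell survival and help, 3 genes were tested, Tnfsf13b, Tnfsf13 and Cd40, with a median edgeR log2 fold change of 1.79. Tnfsf13b, which encodes BAFF, the ligand of the Tnfrsf13c product, stood at 1.43, 3.47 and 1.37 CPM in Db and at 11.8, 7.02 and 2.84 CPM in Db + Ato10, where Db + Ato10 replicate 3 lay below Db replicate 2. Cd40, the receptor for T cell help, had an edgeR log2 fold change of 1.88 (SE 0.42) and was called by DESeq2. The list of lymphoid tissue organisation had a median of 1.78 over 7 tested genes, 2 of them higher with DESeq2, beside the same 5.17%. Cxcl13, the chemokine that draws B cells into follicles, stood at 1.43, 2.77 and 1.86 CPM in Db and at 152, 8.31 and 0.551 CPM in Db + Ato10. Db + Ato10 replicate 1 was far above the other libraries and replicate 3 was the lowest of all 6. Pigr, which carries polymeric antibody with its joining chain across epithelium, stood at 96.4, 255 and 239 CPM in Db and at 184, 706 and 246 CPM in Db + Ato10, high in replicate 2 and not in replicate 1.

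For the remaining lists, the median edgeR log2 fold change was 1.87 for 6 tested T cell genes, 1.63 for Gzma, the 1 tested NK cell gene, 0.028 for 4 genes of plasmacytoid dendritic cells, which share factors with B cells, and 0.16 for 4 genes of conventional dendritic cells. It was 3.18 for 8 macrophage genes, 3.66 for 5 pan-leukocyte genes, -1.38 for 5 erythroid genes, 1.58 for Cidec, the 1 tested adipocyte gene, -0.66 for Upk1a, the 1 tested urothelial gene, 0.95 for Pigr and -0.64 for 8 kidney genes. Cidec reached the count minimum only in Db + Ato10 libraries, as did, among others, Cd247 of the T cell list and Retnlg of the neutrophil list, so the medians of these lists are descriptions. The other urothelial genes, untested, went the other way from Upk1a. Their group means in Db and Db + Ato10 were 0.377 and 2.80 CPM for Upk3a, the most abundant by mean TPM, 0.483 and 1.81 CPM for Upk1b and 0.241 and 0.537 CPM for Upk2. The whole urothelial list summed to 6.66, 3.33 and 4.58 TPM in Db and to 17.7, 7.08 and 2.83 TPM in Db + Ato10, highest in Db + Ato10 replicate 1. With edgeR, 0 genes of any list were DEGs. DESeq2 called as higher 5 of 5 pan-leukocyte and 2 of 6 T cell genes, Cd247 among them, beside 5.17% of tested genes. It also called as higher 1 of 4 neutrophil and 1 of 4 conventional dendritic cell genes. Of the 8 kidney genes 2, Slc12a1 and Slc12a3, were lower with DESeq2, beside 177 of 13679 tested genes. In the NK cell, plasmacytoid dendritic cell, erythroid, adipocyte and urothelial lists DESeq2 called 0 genes.

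**Figure D3:**
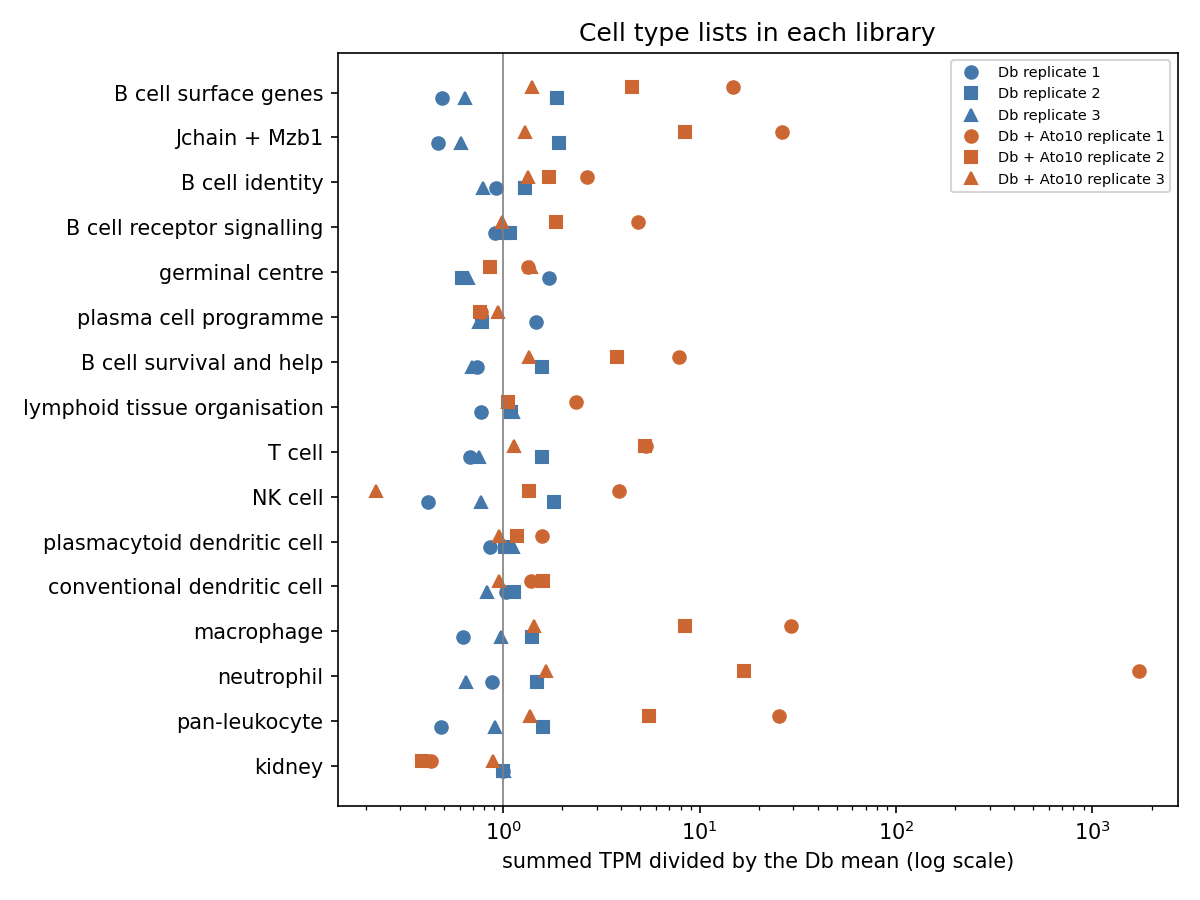
Summed TPM of the B cell surface genes, of Jchain and Mzb1 and of 14 gene lists in each library, divided by the mean of the Db libraries (x axis, log scale); blue points are Db and orange points Db + Ato10 libraries. The neutrophil list stands at 1732 times the Db mean in Db + Ato10 replicate 1, and the plasma cell programme at 0.770 times.

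The genes whose pattern over the 6 libraries lay closest to Cd79a, Pou2af1 and Jchain were sought among all tested genes. Closeness was the root mean square difference of log2 CPM centred on each gene's own mean. For Cd79a the nearest were Il2rg (0.178), Itgal (0.211), Hcls1 (0.231), Fyb (0.244) and Ptprc (0.257), where the median over all tested genes was 1.69. For Pou2af1 they were Fcgr3 (0.137), Clec4a2 (0.148), Ccl6 (0.215), Lpcat2 (0.236) and Ctss (0.289), with a median of 2.19. For Jchain they were Fcrls (0.558), Pilra (0.679), Clec4n (0.697), Msr1 (0.814) and Ltbp2 (0.821), with a median of 2.91, so no tested gene came as close to Jchain as several did to Cd79a and Pou2af1.

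In the transcript table, the estimated counts of Mzb1 were split between 2 transcripts in different ways. The transcript NM_027222.3 held 11.2, 21.9 and 8.13 counts in Db and 328, 41.9 and 27.8 counts in Db + Ato10, and XM_017317978.1 held 19.8, 10.1 and 17.9 counts in Db and 1.96, 21.1 and 45.2 counts in Db + Ato10. The predicted transcript thus held 61.9% of the Mzb1 counts in Db + Ato10 replicate 3 and 0.594% in replicate 1. In the GENCODE vM21 annotation Mzb1 overlaps Spata24 on the same strand, so that reads could be split between them, and Spata24 had 29, 64 and 44 counts in Db and 43, 112 and 95 counts in Db + Ato10. For Cd79b, NM_008339.3 held every count in 4 libraries and NM_001313939.1 every count in Db replicate 3 and Db + Ato10 replicate 3, at 4 and 7 counts. Cd22 and Ms4a1 overlap an antisense gene each, and whether the counting used the strand is not given in the sources used here, so their reads cannot be told apart from those of these partners. Pou2af1 overlaps a gene inside an intron on its own strand, and reads could be split between them.

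Promoter sequences (250 bases before to 50 after the start, RefSeq, build GRCm38.p6) were matched for 6 of the 9 genes, Jchain, Cd79a, Cd22, Pou2af1, Tnfrsf13c and Tnfrsf17. The octamer ATGCAAAT, bound by the factors that the Pou2af1 product assists, was searched on both strands and was in 0 of the 6 and in 1.74% of all 32851 promoters. The core of the EBF1 motif, CCCNNGGG, was in that of Cd22 alone, as CCCTGGGG, and in 13.7% of all promoters. The XBP1 motif TGACGTGG, named for a plasma cell factor, was in that of Pou2af1 alone and in 0.676% of all promoters. The 250 bases before the start of Pou2af1 are shown because B cells and plasma cells both use this gene. It holds that motif, in capitals, 61 to 54 bases before the start. These 250 bases lie at chr9:51213440-51213689 on the plus strand of GRCm38.p6 and hold no exon in GENCODE vM21. A match of letters is a description and not a bound site.
Pou2af1: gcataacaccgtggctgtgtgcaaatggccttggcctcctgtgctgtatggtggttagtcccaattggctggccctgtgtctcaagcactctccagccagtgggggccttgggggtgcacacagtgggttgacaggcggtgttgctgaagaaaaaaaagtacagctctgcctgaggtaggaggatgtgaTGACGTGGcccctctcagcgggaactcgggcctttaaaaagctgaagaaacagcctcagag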

How the data were processed

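Kidney RNA of 3 Db and 3 Db + Ato10 mice was sequenced on BGISEQ-500, 1 library per mouse. Groups and replicate numbers came from the sample titles. For genes and for transcripts the authors deposited expected counts, that is, reads as estimated by their counter and not normalized. Of the values for genes, 91.3% were whole. TPM and FPKM, both deposited for genes, are scaled by the authors to transcript length and depth, and TPM has an equal sum in every library. The submitters' processing notes name HISAT, Bowtie2 2.2.5 and the build mm9, with no role or order, and the counter is not given in the sources used here. Columns of group averages were not used.

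Expected counts were rounded. With edgeR 4.0.16 in R 4.3.3, every gene that reached 10 counts in 3 or more libraries was fitted (TMM normalization, quasi-likelihood F test), and p-values were adjusted over all of them by Benjamini-Hochberg. The standard error of a log2 fold change was its size over the square root of F. CPM values were scaled by TMM. The most abundant gene of a list was taken by mean TPM. Nearest genes used log2 CPM with a prior count of 2. Libraries held between 11381678 and 14667909 counts, and 0 pairs of libraries held the same counts. DESeq2 1.42.0, limma 3.58.1 (voom, log2(TPM + 1) and log2(FPKM + 1)), upper-quartile scaling, other count filters, the replicate number as a block and each library left out were alternatives. The fitting functions were also run on simulated counts with planted changes, with the same dispersion for every gene. That setting lacks the wide differences between the Db + Ato10 mice, so it does not show how the fit performs on these data. Python 3.11.15 with matplotlib 3.10.9 drew the figures.

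The 9 members and the 18 gene lists (160 entries, 158 of them in the table) were chosen with earlier results of these data known. The text names every member, in each list the 4 tested genes with the smallest p-values and the most abundant gene, and the 5 genes nearest to Cd79a, Jchain and Pou2af1; Cr2, Fcmr, H2-Ob, Pax5, Ralgps2, Rasgrp3, Upk1b and Upk2 were added after their values were seen. Some genes of the lists are not reported here singly. Immunoglobulin chain genes were not analysed here.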

Additional observations from a re-analysis of the deposited data

How the results depend on the processing

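Of the single-gene values of the 8 members other than Tnfrsf17, 133 of 133 alternative log2 fold changes kept the higher level in Db + Ato10. In 12 of the 133 the value passed both DEG criteria where edgeR on all 6 libraries did not. The fitted log2 fold change ranged from 2.83 to 6.09 for Jchain, from 1.02 to 2.52 for Mzb1 and from 0.98 to 2.81 for Cd79b. The 5 members under the count minimum were fitted without a filter, where values depend on the prior count. With the count minimum, Cd79b had too few counts to be fitted with at least 10 counts in every library or without Db replicate 2, Db + Ato10 replicate 1 or Db + Ato10 replicate 2, and Jchain with at least 10 counts in every library.

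Over all genes, DESeq2 gave 884 DEGs and edgeR without a library between 0 and 1106, the latter without Db + Ato10 replicate 3, where edgeR on all libraries gave 0. With DESeq2 and a library left out, tried after the data had been seen, DEGs numbered 195, 623 and 223 without Db replicates 1, 2 and 3 and 313, 372 and 2614 without Db + Ato10 replicates 1, 2 and 3. Of the members, DESeq2 called 1. With no filter beyond 1 count DESeq2 called 4 (Cd22, Cd79a, Pou2af1 and Mzb1), beside 1004 DEGs among 17672 genes. With DESeq2 and a library left out between 0 and 3 members were called. These were 3 (Cd79b, Jchain and Mzb1) without Db + Ato10 replicate 3, 1 without Db replicate 2 (Jchain) or Db + Ato10 replicate 2 (Mzb1) and 0 otherwise. Without a filter and with a library left out, edgeR called between 0 and 2 members, the 2 without Db + Ato10 replicate 3, beside 1383 DEGs among 17577 genes. The counts of members in the last 3 settings were chosen after seeing the data. The single-gene fits without a filter of the 5 members under the count minimum were planned, with DESeq2 on all libraries and with edgeR and a library left out. The cause was not tested. limma-voom, limma on log2(TPM + 1) or log2(FPKM + 1), upper-quartile scaling and other count filters gave 0 DEGs. Libraries of the same replicate number showed correlations of -0.15, 0.061 and 0.21 in their deviations. So few libraries cannot settle whether the numbers pair the mice. With the replicate block edgeR gave 0 DEGs and 0 members.

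The log2 ratio of the summed surface genes ranged from 1.89 to 4.08 with a library left out and that of the plasma cell genes from 2.54 to 5.07. The log2 ratio was 4.26 for Jchain alone and 2.11 for Mzb1 alone. The plasma to surface difference ranged from 0.21 to 0.99 with a library left out, and kept its sign in TPM and as a mean of log2 CPM, while a scaling of whole libraries cancels in this ratio. It was 1.14 with Jchain alone and reversed to -1.10 with Mzb1 alone, both tried after seeing the data. With 0 to 13 counts in each Db library, the surface genes were limited by depth.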
